A study of Rattus norvegicus with 2 samples.

Results

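The genes described here form a stretch of 696 members on rat chromosome 7. The authors' deposited result table lists genes in runs that follow chromosomes, and the members are all rows from Prim1 to Hoxc8, both included, whose mean over both libraries was at least 20 normalised reads. The stretch spans 1032 of the table's 17327 rows. Of these rows, 206 were listed at 0 and 130 had a mean above 0 and under 20, which leaves the 696 members among 11212 genes of the whole table with the same minimum. RefSeq's annotation of the rat assembly GRCr8 placed 687 members on chromosome 7 and 1, Srek1ip1, on another chromosome, so the chromosome named for the stretch held for nearly all members. For the other 8 members no RefSeq entry was matched, and 3 of them carry calendar dates in place of gene symbols and are not named here. The mean chose the members, and the limits of the stretch were set with the ratios of its genes in view, so every ratio below is a description.

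RNA was sequenced from cultured rat myometrial progenitor cells, precursor cells of uterine smooth muscle, in a DES-exposed and a VEH-exposed group. The labels do not spell these out; DES is a usual short form of diethylstilbestrol, a synthetic estrogen, and VEH of vehicle. Each group was 1 library of pooled cells from 5 animals, at passages 1 to 3, and the age of the animals, the dose and the time of exposure are not given in the labels. Which of the groups stands on top of the deposited fold change is not stated in the table. The libraries are therefore named by their place in that ratio, numerator or denominator, and a lower or higher value says nothing on the direction of any DES effect.

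Whole reads of both libraries were recovered from the table. The numerator library held 106599579 reads in the listed genes and the denominator library 104793348. Ratios are the numerator library over the denominator library, after division by size factors of 1.01 for the numerator library and 0.991 for the denominator library. With 1 library per group there is no replicate check, no test was run, and 95% intervals of ratios cover counting error only. Fewer cells of a type and less RNA per cell cannot be told apart in such bulk samples. Smooth muscle markers were present in both libraries, with all 8 of 8 above 0 and a sum of 1658818 normalised reads in the numerator library against 933770 in the denominator library. Des and Lmod1 did not follow the sum, with log2 ratios of -0.11 and -0.004, and the others were above 1. The 7 fibroblast markers summed to 4590874 and 11323308, nearly all from Col1a1 and Col1a2, with Tcf21 and Fap above 1 and the other 5 below 1. The 7 markers of mesenchymal progenitors summed to 170483 and 261941, with Nt5e, Cd44, Vcam1 and Cd34 above 1 and Thy1, Eng and Kit below 1.

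Genes on a chromosome share its number of copies in a cell, and the RNA level of many genes follows that number, although regulation of single genes can override or buffer it. A ratio shared by neighbouring genes of unrelated function is therefore described separately from the ratios of genes that stand apart from their neighbours. DNA was not measured here. Rat chromosome 7 carries genes known in uterine and mesenchymal cells, among them a Hox cluster that patterns the body axis, a keratin cluster, the growth factor gene Igf1, the oncogene Myc and Hmga2, a chromatin protein gene known from human uterine fibroids.

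Promoters of 5 members are shown to give the letters behind the kinds of genes described below: Rpl3 as a gene with a ratio near that of the stretch, Hsp90b1 as the member with the most reads, Notch3 as the member with the lowest log2 ratio (pseudocount of 1 normalised read), and Nr4a1 and Krt8 as members at least 2-fold above the median of the stretch. Each is RefSeq sequence of assembly GRCr8, 250 bases before to 50 bases after the gene's start, 5′ to 3′, and capitals mark matches on either strand to the words TGANTCA (AP-1 type), to TATAAA (the TATA box), to CCAAT (the CCAAT box) or to TGCGTCA (a word of the CREB type).
Rpl3 (chr7:113507941-113508240, minus strand): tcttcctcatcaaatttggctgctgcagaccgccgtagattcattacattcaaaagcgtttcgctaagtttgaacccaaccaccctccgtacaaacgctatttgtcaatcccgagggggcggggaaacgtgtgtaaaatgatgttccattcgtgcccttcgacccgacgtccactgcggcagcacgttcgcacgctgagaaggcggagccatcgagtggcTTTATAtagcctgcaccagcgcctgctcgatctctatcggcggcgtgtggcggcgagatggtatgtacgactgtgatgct
Hsp90b1 (chr7:23012244-23012543, minus strand): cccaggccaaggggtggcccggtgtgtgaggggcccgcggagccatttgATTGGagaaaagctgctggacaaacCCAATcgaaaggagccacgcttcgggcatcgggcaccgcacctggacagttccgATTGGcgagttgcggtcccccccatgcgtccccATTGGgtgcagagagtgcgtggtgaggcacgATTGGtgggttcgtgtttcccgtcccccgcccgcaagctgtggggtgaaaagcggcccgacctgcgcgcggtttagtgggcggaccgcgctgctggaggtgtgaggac
Notch3 (chr7:11834536-11834835, minus strand): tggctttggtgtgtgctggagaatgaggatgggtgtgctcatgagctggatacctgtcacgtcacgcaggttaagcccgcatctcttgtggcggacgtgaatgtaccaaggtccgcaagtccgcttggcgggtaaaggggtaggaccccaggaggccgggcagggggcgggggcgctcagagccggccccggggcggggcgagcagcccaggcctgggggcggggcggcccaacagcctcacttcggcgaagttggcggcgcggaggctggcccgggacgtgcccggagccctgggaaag
Nr4a1 (chr7:134259888-134260187, plus strand): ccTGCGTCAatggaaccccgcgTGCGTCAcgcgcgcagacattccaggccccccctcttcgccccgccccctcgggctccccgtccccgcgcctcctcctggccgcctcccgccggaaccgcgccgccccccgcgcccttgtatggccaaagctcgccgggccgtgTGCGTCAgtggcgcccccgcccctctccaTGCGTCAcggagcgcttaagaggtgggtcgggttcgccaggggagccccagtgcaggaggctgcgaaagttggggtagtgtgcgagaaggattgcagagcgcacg
Krt8 (chr7:135010290-135010589, minus strand): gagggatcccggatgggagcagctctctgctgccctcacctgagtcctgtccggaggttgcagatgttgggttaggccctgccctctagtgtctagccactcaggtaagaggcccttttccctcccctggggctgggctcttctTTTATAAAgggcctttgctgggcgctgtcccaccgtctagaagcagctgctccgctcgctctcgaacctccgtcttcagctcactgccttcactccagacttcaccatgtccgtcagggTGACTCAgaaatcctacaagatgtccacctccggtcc

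The Hsp90b1 promoter held 5 matches to CCAAT, and the Nr4a1 promoter held 4 matches to TGCGTCA, a word added after the sequences were seen. Among all 27457 rat promoters of the same length in the RefSeq table, 1 held 3 or more copies of TGCGTCA. The Krt8 promoter held 2 overlapping matches to TATAAA, on opposite strands and before the gene's start. The Krt8 window also held 1 match to TGANTCA, which lay after the gene's start and behind the letters ATG. That match is therefore not read as a promoter element. The Rpl3 promoter held 1 match to TATAAA. No searched word was found in this window of Notch3. Promoters were matched for 441 of the 696 members. Of these 441, 37.0% held CCAAT against 37.7% of all 27457 promoters, 6.35% held TATAAA against 14.3%, 4.31% held TGANTCA against 7.33%, and 2.95% held TGCGTCA against 2.09%. The full palindromic estrogen response element was in 0 member promoters and 7 of all promoters, and TTTCGCGC was in 1 and 94. The median share of G and C was 62.0% in member promoters and 52.3% in all promoters. Members had passed a minimum of reads, whereas all promoters include those of genes with few or no reads. These shares therefore compare unlike sets, and no trait of the stretch is read from them.

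Most genes of the stretch had fewer reads in the numerator library. Of the 696 members, 551 had a ratio below 1 and 145 a ratio above 1. The median log2 ratio of the members was -0.56 (interval of the ranked values -0.62 to -0.50), which is a ratio of 0.677. The median of the 10516 genes outside the stretch was 0.04, a ratio of 1.03. Members with a ratio above 1 made up 20.8% of the stretch (exact Clopper-Pearson interval 17.9 to 24.0%), against 52.4% of the genes outside it. Summed over the members, there were 5468360 reads in the numerator library against 8125673 in the denominator library, a ratio of 0.661.

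Members with a ratio of at least 2-fold whose exact counting interval excluded 1 were called higher or lower. By this rule 159 members (22.8%) were lower and 58 (8.33%) were higher in the numerator library. Over all 11212 genes, 12.8% were lower and 13.9% higher. Because the stretch was chosen on these ratios, nothing is read from the difference of these shares. Counts of higher and lower genes in the groups below are to be set beside these shares, and were not tested. Most members thus lay below 1 by less than 2-fold. In the authors' deposited table, the median shrunken log2 fold change of the members was -0.50. Its p-values rest on 1 library per group and are not read here.

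**Figure D1:**
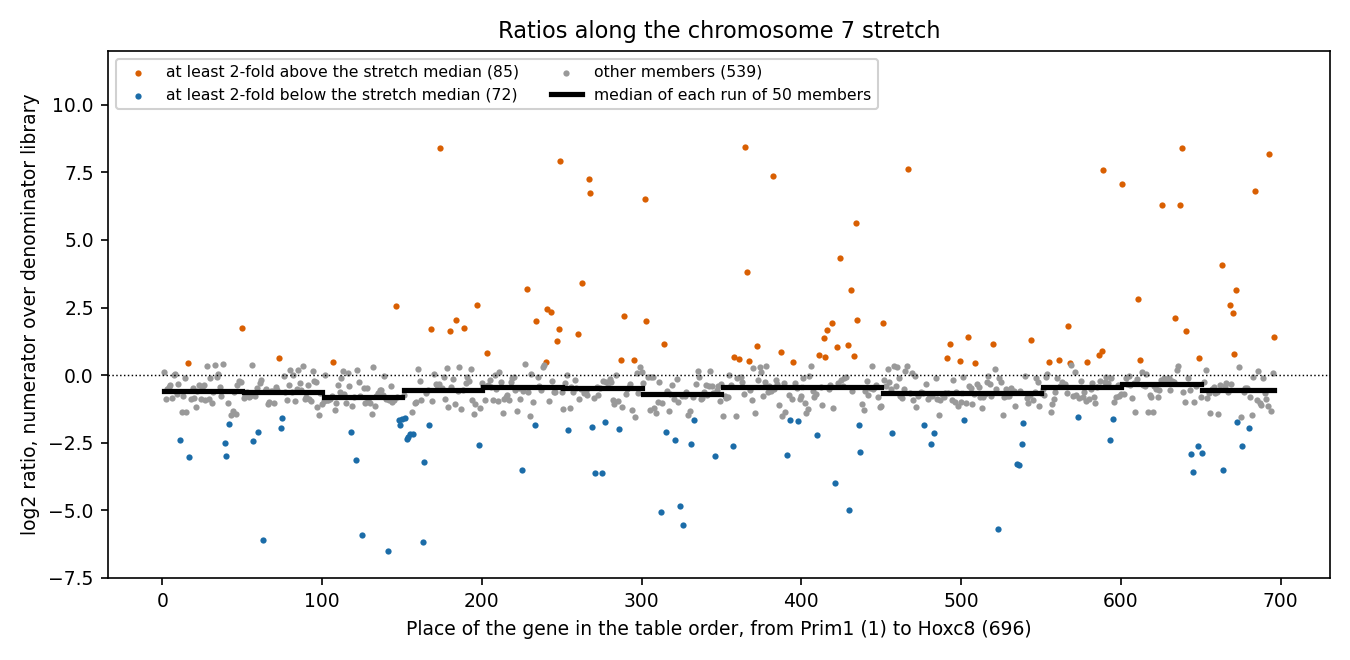
The log2 ratio of each of the 696 members (points, numerator over denominator library) against its place in the table order, with the median of each run of 50 members (black lines; the last run holds 46). All 14 run medians lie below 0, between -0.81 and -0.32, and the coloured points are the 85 members at least 2-fold above and the 72 at least 2-fold below the median of the stretch.

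The ratios formed a single hump around the shifted median. The middle 50% of members lay between log2 ratios of -0.95 and -0.10, that is between ratios of 0.517 and 0.932, and this width of 0.85 compares with 1.01 for genes outside the stretch. Within 0.25 (log2) of a ratio of 2:3, which is -0.58 on the log2 scale, lay 225 members or 32.3% (exact interval 28.9 to 35.9%), against 15.5% of the genes outside. Within the same distance of 1:1 lay 111 members or 15.9%, against 27.6% outside. Near 1:2 there were 158 members (22.7%) against 7.42% outside, and near 3:2 there were 38 (5.46%) against 16.9%. The windows around 2:3 and 1:2 overlap, so some genes are counted in both. The hump was wide, so the members did not share 1 exact ratio.

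**Figure D2:**
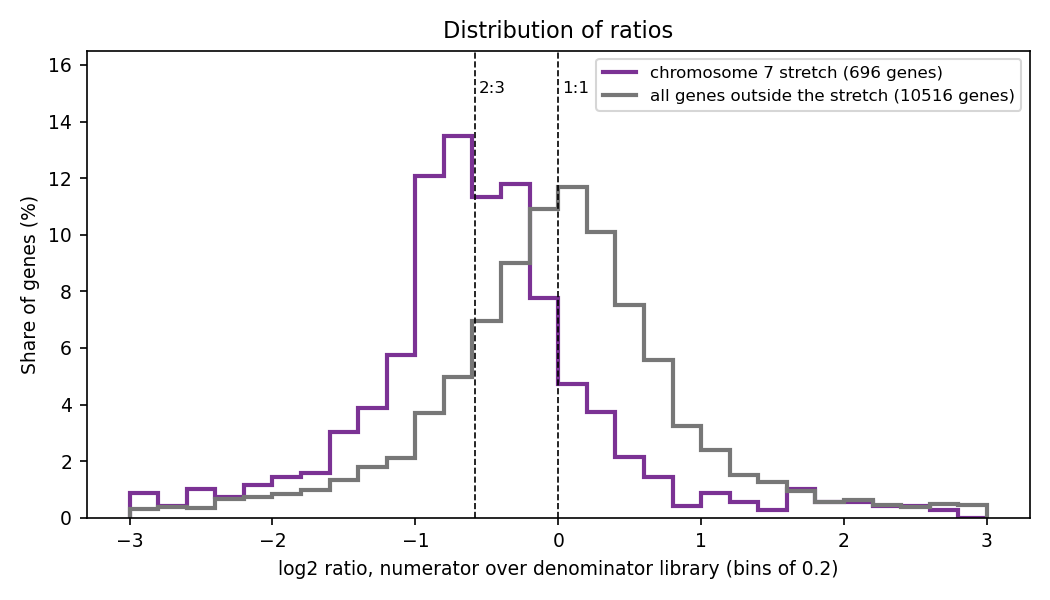
Share of genes (%) in bins of 0.2 of the log2 ratio, for the 696 members of the stretch and the 10516 genes outside it, with dashed lines at ratios of 2:3 and 1:1; the axis ends at -3 and 3, so the farthest genes are not drawn. The curve of the stretch lies to the left of the other, with a median of -0.56 against 0.04.

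Genes with many reads showed the shift with the least scatter. For the 517 members with a mean over 1000 the median was -0.56 and the middle 50% lay between -0.88 and -0.20. Of these 517, 39.5% were within 0.25 of 2:3, against 16.1% of the 7394 genes outside with such means. The 122 members with means of 100 to 1000 had a median of -0.59, and the 57 with means of 20 to 100 had a median of -0.77 with a middle 50% from -2.40 to 1.40. The same classes outside the stretch had medians of 0.05, -0.08 and 0.47. Members just inside the limit, 9 genes with means of 20 to 25, had a median of -0.98, and the 10 rows with means of 15 to 20 had a median of 0.17. All 130 rows above 0 and under 20 had a median of 0.02, with 65 above 1. The 5 members closest to the overall median and with means over 1000 were Vps13b, Atp6v1c1, Rabl2a, RGD1307947 and RGD1563365, with log2 ratios between -0.57 and -0.56. Vps13b, a gene of membrane traffic, had 9499 reads in the numerator library against 13756 in the denominator library, and Atp6v1c1, a subunit of the vacuolar proton pump, had 9571 and 13866.

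In runs of 50 members the shift ran along the whole stretch. In 14 consecutive runs of 50 members (46 in the last), every median lay below 0, with the lowest at -0.81 from Rps15 to Zfp799 and the highest at -0.32 from Fam19a5 to Rpap3. The first run, Prim1 to Celf5, had a median of -0.60 and 9 of its 50 members above 1. The last, Rapgef3 to Hoxc8, had a median of -0.56 and 12 of 46 above 1. Elsewhere in the table there were 210 such runs, of which 76 had a median below 0 and 14 lay at or below -0.32. Of those 210, 193 began outside both the chromosome 4 stretch from Pus7 to Rad51ap1 and the chromosome 1 segment from Il4r to Cdca5. Of the 193, 1 lay at or below -0.32, from Armcx2 to Smarcd1 with a median of -0.33. It holds the chromosome 7 genes from Kansl2 to Smarcd1, which are listed among chromosome X genes and described below. The longest series of consecutive members below 1 held 22 genes, from Csnk1e to Rps19bp1, and the longest above 1 held 5, from Prickle1 to Nell2.

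The beginning of the stretch coincided with a change of chromosome and its end did not. The 10 genes before Prim1, which RefSeq places on chromosomes 6 and 11, had a median of 0.17 with 7 above 1, while the first 10 members had a median of -0.41 with 3 above 1. Prim1 itself, the small subunit of DNA primase, had 3425 reads in the numerator library against 3089 in the denominator library (log2 ratio 0.12). Its neighbours were lower: Naca, which encodes a chaperone of nascent chains, had 44944 and 81070 reads (-0.88), Ptges3, a co-chaperone, had 17097 and 23899 (-0.51), Atp5b, the catalytic subunit of ATP synthase, had 82144 and 108885 (-0.43), and the chromatin remodelling gene Baz2a had 5833 and 7463 (-0.38). At the other end the last 10 members had a median of -0.79, and Calcoco1, a coactivator just before the Hoxc genes, had 9268 and 20049 (-1.14). The 10 genes that follow Hoxc8 are also on chromosome 7, and their median was -0.66 with 1 above 1. Among them were Hoxc5 with 12 reads in the numerator library against 50 in the denominator library, Hoxc4 with 85 and 587, Smug1, a DNA glycosylase, with 279 and 334, Cbx5, a heterochromatin protein, with 4152 and 4604, and Hnrnpa1, a splicing factor, with 9097 and 17401. The low ratios thus continued beyond the limit set at Hoxc8.

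Grouped by the chromosome that RefSeq gives, chromosome 7 had the lowest median of 21 chromosomes. Its 731 genes had a median of -0.57, chromosome 4 followed with -0.38 over 618 genes, and the other 19 medians lay between -0.06 (chromosome 20) and 0.26 (chromosome 13). Below 1 in the numerator library were also most genes of the chromosome 4 stretch (median -0.38, 542 genes, 33.2% above 1) and of the chromosome 1 segment (median -0.63, 273 genes, 18.7% above 1). The share of genes within 0.25 of 2:3 was 32.3% in the chromosome 7 stretch, 24.5% in the chromosome 4 stretch and 31.1% in the chromosome 1 segment. These differences between stretches were not tested.

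**Figure D3:**
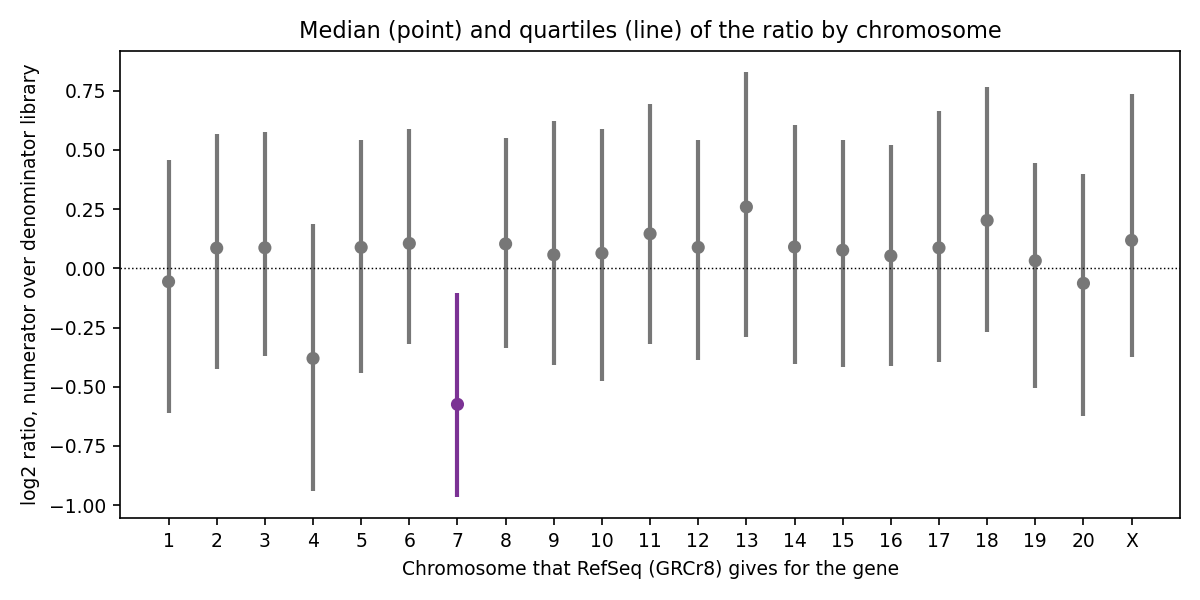
Median (point) and quartiles (line) of the log2 ratio for genes whose mean was 20 or more, by the chromosome RefSeq gives, with chromosome 7 in colour. Chromosome 7 lies lowest at -0.57, chromosome 4 follows at -0.38, and the other medians lie between -0.06 and 0.26.

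A block of chromosome 7 genes that the row rule did not take showed low ratios as well. The table lists the rows from Kansl2 to Lima1 between Alg13 and Lhfpl1, among genes that RefSeq places on chromosome X, whereas RefSeq places all 29 genes of the block with a mean of at least 20 on chromosome 7. The median of the block was -0.79 (interval of the ranked values -1.03 to -0.38), with 26 of 29 below 1, 9 lower and 2 higher. Over all 11212 genes, 12.8% were lower and 13.9% higher. The 30 genes listed before the block and the 30 after it, 56 of them on chromosome X, had a joint median of 0.14 with 28 of 60 below 1. The median of the block thus lay below that of the genes around it in the table and on the same side of 0 as that of the stretch. Genes of the block included Adcy6, an adenylyl cyclase, with 9899 reads in the numerator library against 19174 in the denominator library (-0.98), Tmbim6, an inhibitor of cell death in the endoplasmic reticulum, with 30006 and 45650 (-0.63), and Lima1, an actin-binding protein, with 19621 and 38213 (-0.99). Racgap1, a protein of cytokinesis, had 408 and 1822 (-2.18), and Gpd1, a glycerol phosphate dehydrogenase, had 140 and 25 (2.41). The tubulin genes Tuba1a and Tuba1b had log2 ratios of 0.36 and -0.29, but they are near-identical and uncertain. Another 5 single genes that RefSeq puts on chromosome 7 were listed elsewhere: Eif3e and Eif3h, subunits of a translation initiation factor, had log2 ratios of -1.07 and -0.84, while Ube2n, Myl6l and Tuba1c lay between 0.14 and 0.24.

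**Figure D4:**
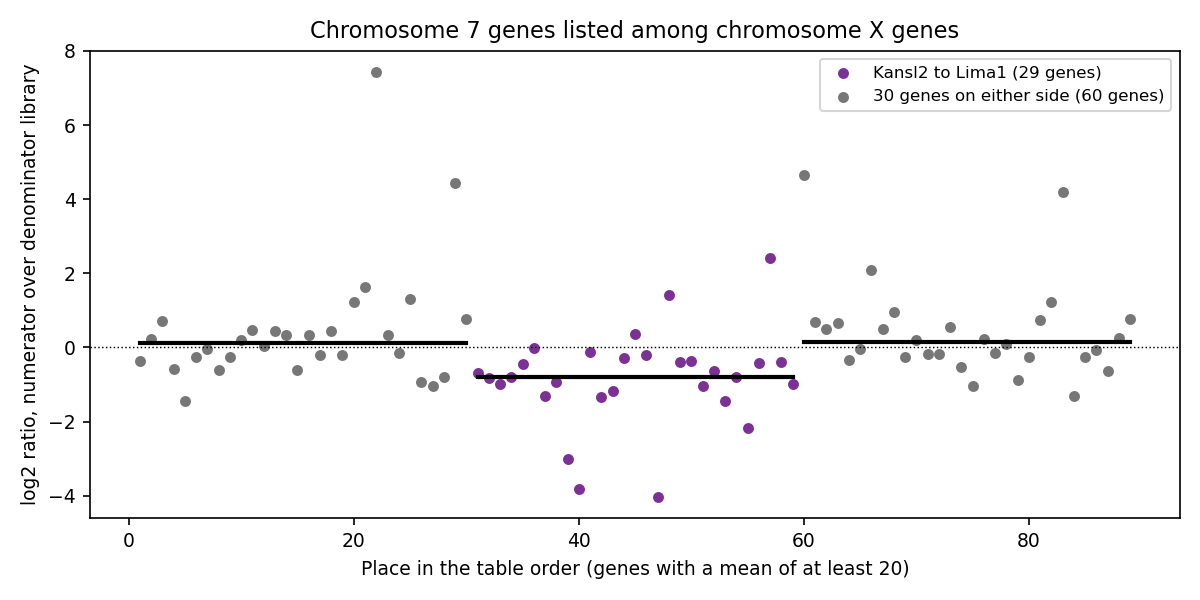
The log2 ratio of the 29 genes from Kansl2 to Lima1, which the table lists among chromosome X genes and RefSeq places on chromosome 7, and of the 30 genes on either side (points), in table order. Black lines are medians: -0.79 in the block, 0.11 before it and 0.14 after it.

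Families with members both inside and outside the stretch were set side by side, by name patterns chosen after the values were seen. The 7 cytosolic ribosomal protein genes inside the stretch had a median log2 ratio of -0.72 and a range of -0.96 to -0.58. The 68 outside had a median of -0.25, with a middle 50% from -0.37 to -0.14. The 13 genes of the respiratory chain and ATP synthase inside had a median of -0.55, and 73 outside had a median of 0.19. Initiation factor Eif3 subunits had a median of -0.67 for the 2 inside and -0.25 for the 11 outside, which include Eif3e and Eif3h. Solute carriers had a median of -0.27 for 17 inside and 0.21 for 188 outside, and zinc finger genes named Zfp had -1.28 for 14 inside and -0.47 for 163 outside. The inside median was the lower in these 5 families and the higher in the other 2 that were set side by side: 2.29 for 3 keratins inside against -1.46 for 2 outside, and 0.75 for 4 Hox genes inside against -1.26 for 18 outside.

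Genes of translation and RNA binding stayed near the ratio of the stretch. Of 23 members, 21 lay below 1, 4 were lower by the 2-fold rule, none was higher, and none stood at least 2-fold from the stretch median; the group's median was -0.66. Rpl3, a ribosomal protein gene whose promoter is shown above, had 113970 reads in the numerator library against 169631 in the denominator library (1.52-fold lower). Rpl8 had 22240 and 38506 reads (log2 ratio -0.82) and Rps15 had 17746 and 33946 (-0.96). Eef2, the elongation factor that moves the ribosome along the messenger, had 261964 and 533120 reads (2.07-fold lower, counting interval 2.06 to 2.08). Pabpc1, the cytoplasmic poly(A)-binding protein, had 160483 and 277143 reads (-0.81), and Cirbp, a cold-inducible RNA-binding protein, had 2182 and 5309 (-1.31). The 2 members above 1 were Ptbp1, a splicing repressor, with 16864 and 14426 reads (0.20), and Ywhaz, a phosphoserine-binding adaptor protein, with 100047 and 97412 (0.01). Polr2f, a subunit shared by RNA polymerases, had 2612 and 2628 (-0.03). Outside the group, Eif4b, an initiation factor, lay further down with 37047 and 120385 reads (3.31-fold lower, counting interval 3.27 to 3.35).

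Metabolic and mitochondrial genes had a median of -0.35 over 29 members, with 23 below 1, 2 lower and 2 higher. The list does not hold Ndufa4l2, a mitochondrial protein of the stretch with a log2 ratio of -4.83, which is described below. The subunit genes Ndufa12, Ndufs7 and Ndufa6 of respiratory complex I had log2 ratios of -0.89, -0.92 and -0.84. Citrate synthase, Cs, had 15090 reads in the numerator library against 15951 in the denominator library (-0.11), nearer to 1:1. There were 4 members at least 2-fold above the stretch median and 0 below it, where 12.2% and 10.3% of all members lay. Aldh1l2, a mitochondrial enzyme of folate metabolism, had 11084 and 2623 reads (4.15-fold higher, counting interval 3.98 to 4.33). The amino acid transporter gene Slc38a1 had 4901 and 1544 (3.12-fold higher), whereas its neighbour Slc38a2 had 58731 and 61518 (-0.09). Sqle, squalene epoxidase of sterol synthesis, had 20079 and 11851 (1.66-fold higher), and Tst, rhodanese, had 73 and 50 (ratio 1.43, interval 0.987 to 2.10).

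Cell cycle and replication genes had a lower median than all members, -0.92 against -0.56. There were 25 of them, with 10 lower, none higher, 5 at least 2-fold below the stretch median and 1 above it. Over all members 22.8% were lower and 8.33% higher, and over all genes 12.8% and 13.9%. Of all members, 10.3% lay at least 2-fold below the stretch median and 12.2% above it. Parpbp, a PARP1-binding regulator of recombination, had 287 reads in the numerator library against 1702 in the denominator library (6.04-fold lower, counting interval 5.33 to 6.87). Recql4, a DNA helicase, had 92 and 535 (5.92-fold lower, counting interval 4.74 to 7.47). E2f7, a repressor of the E2F family, had 50 and 205 (4.18-fold lower), and Espl1, the protease separase that releases sister chromatids, had 177 and 673 (3.87-fold lower). Cdk4 and Cdk2, kinases of the G1 phase and S phase, had log2 ratios of -0.98 and -0.92, and Rad21, a cohesin subunit, had -0.60. Mdm2, the ubiquitin ligase of p53, had 27032 and 31849 reads (-0.26). Rrm2b, a ribonucleotide reductase subunit, stood above with 1241 and 757 reads (1.61-fold higher, counting interval 1.47 to 1.76). Ckap4, an endoplasmic reticulum protein with the most reads of the group, had 81869 and 66445 (0.28).

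Chromatin regulators stayed close to the stretch, with a median of -0.42 over 15 members, 13 below 1, 1 lower and none higher. The lower gene was Cbx7, a Polycomb protein, with 210 reads in the numerator library against 2012 in the denominator library (9.76-fold lower, counting interval 8.46 to 11.3). Its paralogue Cbx6, close by in the table, had 9136 and 13636 (log2 ratio -0.60). Dot1l, a histone methyltransferase, had 1046 and 2017 (-0.97). L3mbtl2, a Polycomb-related protein, had 2259 and 2159 (0.04), and Ankrd52, a phosphatase subunit, had 3896 and 2812 (0.44).

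In the list of transcription factors, which also holds the pseudokinase gene Trib1, 7 members were at least 2-fold above the stretch median and 1 below it. Of all members of the stretch, 12.2% lay above and 10.3% below by this rule, and the difference was not tested. The group's median was -0.24 over 27 members, with 6 higher and 4 lower. The median was 0.22, on the other side of 0, with only those genes for which the deposited mean allows 1 pair of reads, which leaves out genes with many reads. Nr4a1, an orphan nuclear receptor induced early by stimuli, had 21092 reads in the numerator library against 3461 in the denominator library (5.99-fold higher, counting interval 5.77 to 6.21). Sp7, osterix of bone-forming cells, had 111 reads against 0. With a floor of 3 reads in place of 0 this is a ratio of 36.3 (lower limit of the counting interval 29.1). Atf4, the stress-response activator, had 57357 and 113917 reads (2.02-fold lower), and Ddit3, its target known as CHOP, had 2959 and 15337 (5.28-fold lower, counting interval 5.07 to 5.49). Myc had 4636 and 2846 reads (1.60-fold higher) and stood above the stretch together with its table neighbours Trib1, a pseudokinase (5179 and 1942 reads, 2.62-fold higher), and Adcy8, an adenylyl cyclase (1396 and 433 reads, 3.17-fold higher). Maff, a small Maf protein, had 5281 and 2353 reads (2.20-fold higher). Hmga2 had 859 and 684 reads (0.30), and Sp1, a general activator, had 11428 and 21016 (-0.90).

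The Hoxc genes did not share a ratio. Hoxc11 had 291 reads in the numerator library against 0 in the denominator library. Against the floor it was 95.3-fold higher (lower limit of the counting interval 77.0). Hoxc10, listed next, had 801 and 1987 reads (2.53-fold lower, counting interval 2.33 to 2.75). Hoxc9 had 88 and 81 reads (ratio 1.07, interval 0.780 to 1.46), and Hoxc8 had 58 and 21 (2.71-fold higher, counting interval 1.62 to 4.71). With Hoxc5 and Hoxc4 just beyond the limit, both lower, the direction changed several times within 1 cluster. Reads from overlapping transcripts of the cluster cannot be told apart where counting did not use strand, and the use of strand is not stated.

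Growth factors, receptors and their regulators had a median of -0.03 over 18 members, and the 18 were spread from -3.99 to 8.42. Of them 6 were higher and 5 lower, and 8 stood at least 2-fold above the stretch median and 3 below it. Of all members 12.2% stood above and 10.3% below, and the difference was not tested. Among genes of 1 possible pair of reads only, the median was 1.07. Among ligands, Kitlg, stem cell factor, had 9497 reads in the numerator library against 1720 in the denominator library (5.42-fold higher, counting interval 5.15 to 5.71). Angpt1, the activating ligand of the receptor Tek, had 413 and 193 (2.10-fold higher), and Igf1 had 36 and 5 (7.07-fold higher, counting interval 2.77 to 23.1). Igf1, with a mean of 20.4, passed the minimum of 20 only through the numerator library. Pdgfb, a ligand of mural cell receptors, had 4 and 48 reads (12.2-fold lower, counting interval 4.47 to 46.7). Nell2, a secreted neural protein, had 344 and 0 (113-fold higher against the floor, lower limit of the counting interval 91.1).

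Among receptors, Fzd6, a Wnt receptor, had 1381 reads in the numerator library against 96 in the denominator library (14.1-fold higher, counting interval 11.5 to 17.6). Acvrl1, a receptor of BMP ligands typical of endothelium, had 3050 and 34351 (11.5-fold lower, counting interval 11.1 to 11.9). Of 6 endothelial markers 5 were above 0, with a sum of 666.9 normalised reads in the numerator library against 8186 in the denominator library, and Kdr was at 0 in both. Pecam1, Cdh5, Vwf and Esam were below 1, Cdh5 with 2 reads against 2166. Tek was above 1 with 553 reads against 67, most of the sum in the numerator library. The part of such cells in this result was not tested. Among regulators, Socs2, an inhibitor of cytokine signalling, had 1363 and 147 reads (9.11-fold higher, counting interval 7.68 to 10.9), Dusp6, a phosphatase that turns off ERK, had 8139 and 5689 (1.41-fold higher), and Igfbp6, an IGF-binding protein, had 30219 and 87101 (2.93-fold lower). Ndrg1, a gene induced by hypoxia and differentiation, had 3933 and 61436 (15.9-fold lower, counting interval 15.4 to 16.4).

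Matrix and adhesion genes split around the stretch, with a median of -0.45 over 19 members, 6 lower and 3 higher. With genes of 1 possible pair of reads only, this median was 0.47, on the other side of 0. Cthrc1, a secreted collagen-related protein, had 346 reads in the numerator library against 0 in the denominator library. Against the floor it was 113-fold higher (lower limit of the counting interval 91.6). Nov, a matricellular protein, had 12321 and 6605 (1.83-fold higher), and Has2, a hyaluronan synthase, had 4529 and 3207 (1.39-fold higher). Timp3, an inhibitor of metalloproteinases, had 34426 and 10494 (3.22-fold higher, counting interval 3.15 to 3.29). Col14a1, a collagen of fibril surfaces, had 5692 and 43728 (7.82-fold lower, counting interval 7.61 to 8.04), and Fbln1, a fibulin, had 1298 and 6721 (5.27-fold lower). Wisp1, a matricellular relative of Nov, had 6568 and 15015 (log2 ratio -1.22), and Tnfrsf11b, the decoy receptor osteoprotegerin, had 3944 and 8379 (-1.11). Genes below and above the stretch thus both included secreted proteins. The neighbouring small proteoglycan genes Dcn and Lum went opposite ways: decorin had 219 and 782 reads (3.64-fold lower, counting interval 3.13 to 4.24) and lumican had 101 and 24 (4.13-fold higher, counting interval 2.63 to 6.75). Lrp1, a large endocytic receptor, had 160063 and 269781 (log2 ratio -0.78). Cd63, a tetraspanin, had 84197 and 112614 (-0.45), and Itga7, an integrin subunit of muscle cells, had 72855 and 54466 (0.39).

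Contractile and cytoskeletal genes had a median of -0.35 over 12 members, with 1 lower and 1 higher. Csrp2, a LIM protein of smooth muscle, had 1343 reads in the numerator library against 3088 in the denominator library (2.34-fold lower). Plec, the crosslinker plectin, had 29776 and 34995 (log2 ratio -0.26), Twf1, which binds actin monomers, had 17683 and 13674 (0.34), and Parvb, a partner of integrin-linked kinase, had 5650 and 3790 (0.55). Arhgap8, a GTPase-activating protein, had 195 and 0 reads (63.8-fold higher against the floor, lower limit of the counting interval 51.4). Myh9l1, with 136119 and 212004 reads (-0.67), and Myh9, with 713 and 1311 (-0.90), have names of related myosin genes that may share reads and are uncertain.

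**Figure D5:**
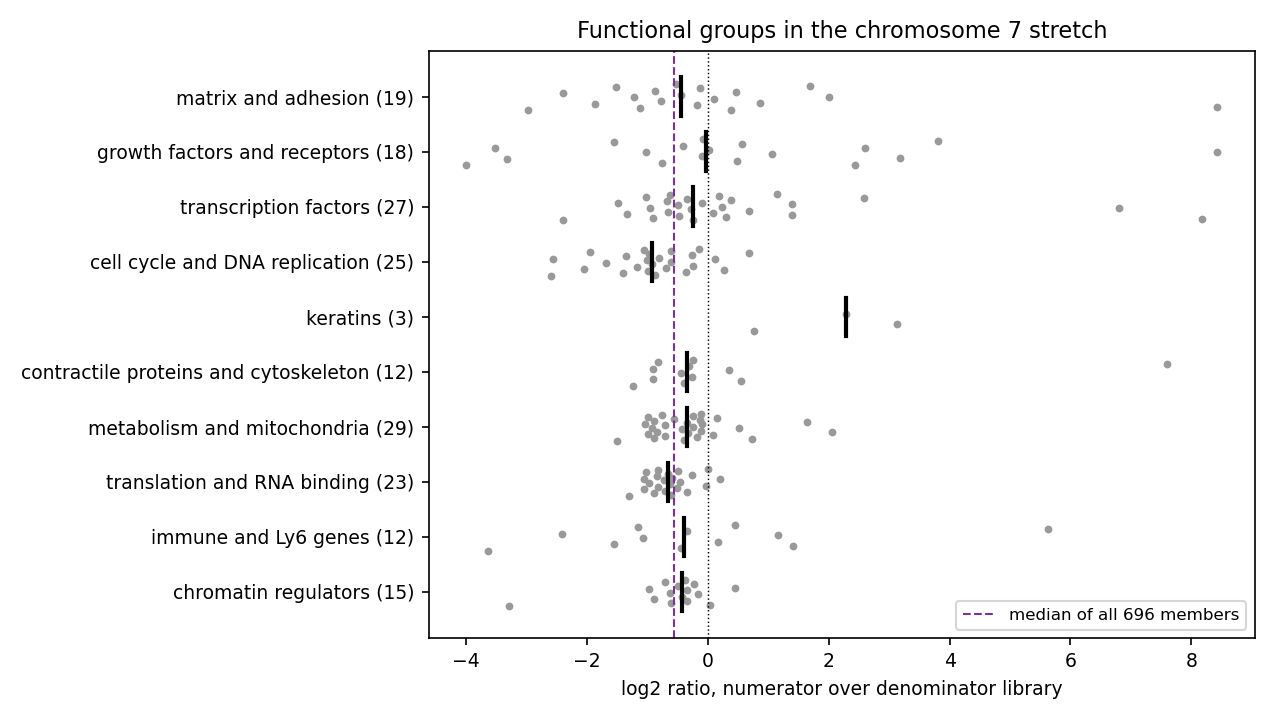
The log2 ratio of each member (points) of the 10 functional groups, with each group's median (black bars), the median of all 696 members (dashed line) and 0 (dotted line); numbers in brackets are members. Translation genes gather near the dashed line, cell cycle genes lie to its left, and the 3 keratins to its right.

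The 3 keratin members, genes of the epithelial intermediate filaments, all stood above 1 and above the stretch, with a median of 2.29 (0.99 with keratin genes under the minimum included). Krt18 had 553 reads in the numerator library against 61 in the denominator library (8.90-fold higher, counting interval 6.83 to 11.8). Krt80 had 218 and 43 (4.98-fold higher, counting interval 3.58 to 7.08), and Krt8, whose promoter is shown above, had 2473 and 1431 (1.70-fold higher, counting interval 1.59 to 1.81). Of 7 epithelial markers, among them Krt8 and Krt18, 6 were above 0, with a sum of 3046 normalised reads in the numerator library against 1625 in the denominator library. Epcam had 0 and 7 reads and Cdh1 0 in both, so these defining epithelial genes were at or near 0. Nearly all of the sum came from Krt8 and Krt18 themselves. Krt19 had 11 reads against 55, Muc1 had 32 against 53 and Cldn4 had 5 against 3.

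Immune and Ly6 genes had a median of -0.39 over 12 members, with 3 higher and 5 lower. Lgals1, galectin-1, had 172829 reads in the numerator library against 123993 in the denominator library (1.37-fold higher, counting interval 1.36 to 1.38). Lynx1, a Ly6-type modulator of nicotinic receptors, had 99 reads and 1 read (97.2-fold higher, counting interval 17.1 to 3879), and Card10, an adaptor of NF-kB signalling, had 34 and 12 (2.78-fold higher). Il23a, a cytokine subunit, had 24 and 129 (5.47-fold lower, counting interval 3.52 to 8.85). Lyz2, lysozyme of macrophages, had 5 and 72 (14.7-fold lower). Lynx1, Card10 and Lyz2 passed the minimum on the mean only through the library where they were higher. Of the 6 macrophage markers, Lyz2 among them, 4 were above 0, with sums of 295.3 normalised reads in the numerator library against 414.7 in the denominator library; Ptprc and Adgre1 were at 0 in both. Csf1r had 22 reads against 270 and Itgam 0 against 15, while Cd68 had 271 against 54, most of the sum in the numerator library. The part of such cells was not tested.

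In all, 72 members lay at least 2-fold below the stretch median and 85 at least 2-fold above it, with counting intervals that excluded it. These are 10.3% and 12.2% of the members. By the same rule around their own median, 12.9% of all 11212 genes lay below and 13.8% above. The lowest log2 ratio, with its pseudocount of 1 normalised read, belonged to Notch3, the receptor of vascular mural cells, with 219 reads in the numerator library against 19811 in the denominator library (92.1-fold lower, counting interval 80.6 to 106). All 6 of 6 pericyte markers, Notch3 among them, were above 0 in at least 1 library, with sums of 44286 normalised reads in the numerator library against 280924 in the denominator library, and Rgs5 was at 0 in the denominator library. Abcc9, with 38 reads against 168646, made up most of the sum in the denominator library, and Kcnj8 and Mcam were below 1 as well. Cspg4 had 31833 reads against 28088, most of the sum in the numerator library, and Rgs5 had 22 against 0. The part of such cells in this result was not tested.

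Other members at the low end included secreted proteins, kinases and channels. Angptl4, a secreted inhibitor of lipoprotein lipase that hypoxia also induces, had 24 reads in the numerator library against 1756 in the denominator library (74.5-fold lower, counting interval 49.9 to 117). Matk, a kinase that restrains Src, had 7 and 537 (78.1-fold lower, counting interval 37.7 to 195). Grin3b, a glutamate receptor subunit, had 10 and 652 (66.4-fold lower, counting interval 35.9 to 139), and Kcnj4, an inward rectifier channel, had 1 read and 100 reads (102-fold lower, counting interval 17.9 to 4061). Nxph4, a neurexophilin, had 54 and 2552 (48.1-fold lower, counting interval 36.8 to 64.2). Ndufa4l2, a mitochondrial protein induced by hypoxia, had 3018 and 84131 (28.4-fold lower, counting interval 27.4 to 29.4). Agap2 and Bai1 had 5 reads each in the numerator library, against 194 and 185 in the denominator library. Every gene named in this group had at least 100 reads in the denominator library, and the numerator library lay between 1 and 3018.

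At the high end, 7 of the 10 members with the largest log2 ratios (pseudocount of 1 normalised read) had no read in the denominator library. Besides Cthrc1, Nell2, Hoxc11 and Arhgap8 these were Mterfd3, Aard and Fam19a5. Mterfd3 had 343 reads in the numerator library against 0 in the denominator library (112-fold higher against the floor of 3 reads). Aard had 165 and 0 (54.0-fold) and Fam19a5 had 134 and 0 (43.9-fold). For Mterfd3, Aard and Fam19a5 the lower limits of the counting intervals were 90.8, 43.4 and 35.2. Ptprq, a receptor-type phosphatase, had 11151 and 44 reads (249-fold higher, counting interval 185 to 343). Scx, scleraxis of tendon cells, had 396 reads and 1 read (389-fold higher, counting interval 69.4 to 15399), and Lgr5, a receptor of R-spondins that marks stem cells in several epithelia, had 467 and 2 (229-fold higher, counting interval 63.1 to 1899). Over the stretch, 9 members (1.29%) had 0 reads in the denominator library and none had 0 in the numerator library. Outside it these were 151 genes (1.44%) and 21 genes. Any gene at 0, or under 20 normalised reads, in 1 library passed the minimum only through the other, where it was higher.

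The members with the most reads were all within 3-fold of 1:1. Hsp90b1, a chaperone of the endoplasmic reticulum, had 308359 reads in the numerator library against 571102 in the denominator library (1.89-fold lower, counting interval 1.88 to 1.89). Bsg, basigin, had 119414 and 318196 (2.71-fold lower, counting interval 2.69 to 2.73). Of the 10 members with the highest mean, 8 lay below 1, and Lgals1 and Ywhaz were above.

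Some members that departed from the stretch had departing neighbours. There were 9 groups of 2 or more consecutive members below and 12 above, holding 21 and 29 genes. Groups also arise when departing members lie in random order, and their number in such an order was not computed. Nothing is therefore read from these counts. The longest lay among cytochrome P450 and zinc finger genes: Cyp4f6, Zfp472, Zfp763 and Zfp563 were consecutive, with log2 ratios between -2.36 and -1.59, just after Cyp4f5, Cyp4f37 and Zfp799 between -1.83 and -1.64. These belong to families of close relatives that may share reads, and are uncertain. Cyp11b1 and Cyp11b2, near-identical enzymes of steroid synthesis in the adrenal gland, had log2 ratios of -1.83 and -2.86. Above the stretch, Cthrc1, Fzd6 and Baalc were consecutive, as were Krt80, Krt8 and Krt18, and Them6, Lynx1 and Psca.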

How the data were processed

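RNA was read as single 36 bp reads in 2 libraries, DES and VEH. The submitters' processing notes name featureCounts, TopHat, SAMtools, FastQC, DESeq2, rn4 and rn5, without versions or settings. The authors' deposited table holds, per the file headers, a mean (a signal: reads divided by size factors, averaged over both libraries), a shrunken log2 fold change with its standard error, a statistic (a score) and the authors' p-value and adjusted p-value.

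Whole reads were recovered from the mean with Python 3.11.15, numpy 2.4.6 and scipy 1.17.1. In 9307 of 13221 genes a single pair of reads was possible. In the other 3914, possible pairs lie 5419 reads apart, and the pair nearest to a shrunken negative binomial fit of the deposited fold change and standard error was taken, which lay at most 6.58 reads away. The recovery was tested on simulated data made with the same fit. Log2 ratios used 1 normalised read as pseudocount, folds none. Intervals are exact 95% Clopper-Pearson intervals of the share of reads, and reads are not independent molecules. The planned values per library were not in the table, so these recovered reads replaced them.

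Members and lists were chosen with earlier results of these data known. Named were the 10 highest and 10 lowest log2 ratios, the 10 highest means and the 5 members at either end. Also named were the 5 nearest the median with a mean over 1000. In each of the 10 lists, the 4 farthest from the median and the one with the most reads were named. Further genes were named after their values were seen. RefSeq entries were matched by symbol for 640 members and by synonym for 48. The order is that of the table, and its build could not be told from the labels. Alternatives were another minimum, scaling, fold, run length, pseudocount and choice of pairs. The values of 1 member are not reported here.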

Additional observations from a re-analysis of the deposited data

How the results depend on the processing

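The median of the chromosome 7 stretch stayed below 0 in the 9 alternative settings that recompute it. Over 13 settings, 128 of 139 recomputed values lay inside the intervals or within 1.5 times the counts. Scaling by the median of genes outside the 3 stretches moved all log2 ratios by -0.08 and the median of the members to -0.64. With no minimum on the mean, 25.4% of the genes lay above 1 and 27.9% lay near 2:3. With genes of 1 possible pair of reads only, which leaves out those with many reads, these shares were 24.2% and 28.3%, the median of contractile genes was -0.90 and that of translation genes -0.34, and 3 medians changed sign: 0.47 for matrix and adhesion, 0.22 for transcription factors and 1.07 for growth factors. By the deposited shrunken fold change, 37.9% of members lay near 2:3 and 37 lay at least 2-fold below the median. With a fold of 1.5 there were 341 lower members and with a fold of 3 there were 71. All medians of runs stayed below 0 in runs of 25 and of 100 members. In runs of 25 the highest was -0.07, and 127 of 420 such runs elsewhere lay at or below it. Runs of this length thus did not all stand apart from the rest of the table. In runs of 100 the highest was -0.405, and 4 of 105 elsewhere lay at or below it. No paired analysis was possible because each group has 1 library. Ratios of members with few reads are limited by counting error, and the spread between cultures or animals cannot be estimated.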
